A study of Mus musculus with 16 samples.

Results

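Protocadherins were described in lumbar dorsal root ganglia (DRG), where the somata of sensory neurons sit among satellite glia. Members were all rows of protein-coding genes whose symbol starts with Pcdh, chosen by name and biotype: 36 of 36722 rows, 24 of them clustered (Pcdha, Pcdhb, Pcdhg) and 12 non-clustered. Tests were made on the 34 members (23 clustered, 11 non-clustered) whose mean log2 value over all 16 libraries was at least 6.99, among 13385 tested genes in all. All animals were C57BL/6 mice that had received 20 µl of 2% carrageenan, an inflammatory agent, in the paw. At 6 days they were given an intrathecal injection, and the ganglia of levels L3 to L5 were taken 6 hours later. The vehicle group received PBS (n = 5), the fusion protein group 1 µg of the IL4-10 fusion protein, which joins both cytokines in a single molecule (n = 6), and the combination group 0.5 µg each of separate IL4 and IL10 (n = 5). All 3 groups thus share the carrageenan and the intrathecal injection. Nothing in the labels says that each sample is a separate mouse, and p-values then measure only the spread between samples, which may be technical.

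Protocadherins are cadherin-type adhesion proteins of neurons and other cells. The clustered genes lie in tandem arrays in which each neuron uses a few promoters, chosen with the help of CTCF and cohesin, so that cells carry surface combinations by which neurites recognise those of the same cell. Non-clustered members act singly, each with its own promoter. They are grouped by their cytoplasmic tails into delta1 (Pcdh1, Pcdh7, Pcdh9, Pcdh11x) and delta2 (Pcdh8, Pcdh10, Pcdh17, Pcdh18, Pcdh19) types, and they serve axon growth, synapse formation and adhesion, while Pcdh12, Pcdh15 and Pcdh20 stand outside these types here.

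The authors deposited log2-scale values after variance stabilisation. They decode to whole numbers, called scaled values here, which had been scaled by the authors and are not read counts. A value of 1 means that a gene was not detected, and read depths are unknown. Sums over all genes ranged from 17.2 to 18.7 M in vehicle, 16.7 to 19.1 M in fusion protein and 18.2 to 20.9 M in combination libraries. The tissue label was checked on markers: summed scaled values of 9 sensory neuron markers ranged from 193822 to 249825 in vehicle, 181011 to 288523 in fusion protein and 207764 to 258747 in combination libraries. Macrophage markers (7 genes) summed to 1444 to 2311, 2420 to 4856 and 1861 to 2739 in the same order, so the fusion protein libraries lay above all vehicle libraries. Fibroblast markers (5 genes) summed to 12818 to 15958, 15368 to 18503 and 16830 to 23028, so the combination libraries lay above all vehicle libraries. Of these 5 genes 2 rose and 1 fell after the combination (limma, adjusted p below 0.05). Spinal cord markers (7 genes, with Olig2 undetected in every library) summed to 204 to 950, 244 to 1597 and 164 to 207. The part of these differences in the protocadherin results was not tested. In bulk tissue, fewer cells of a type and less RNA per cell cannot be told apart.

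Levels were compared between genes per kilobase of exon not shared with another gene (GENCODE M21, GRCm38). Among the non-clustered genes Pcdh9, a delta1 gene of neurons on chr14:93013410-93890679, was highest at 253 ± 31.7 scaled values per kilobase (SD over 16 libraries). Pcdh1, a delta1 gene with a role in epithelial adhesion as well, on chr18:38185914-38212053, followed at 145 ± 40 and Pcdh7, a delta1 gene on chr5:57717967-58133230, at 108 ± 13.8. Within each group Pcdh9 (226 to 282 in vehicle, 200 to 261 after the fusion protein, 245 to 295 after the combination) lay above Pcdh1 (181 to 218, 117 to 132 and 95.3 to 136) without overlap. Pcdh1 in turn lay above Pcdh7 in vehicle (102 to 126) and after the fusion protein (84.5 to 108), while after the combination their ranges overlapped (Pcdh7 at 96.7 to 132). A group in the middle held Pcdh17 (55.3), Pcdh10 (51.4) and Pcdh18 (48.2), and Pcdh19 lay at 20.4. Pcdh11x (9.24), Pcdh8 (9.16), Pcdh12 (7.55), Pcdh15 (2.25) and Pcdh20 (1.48) were low, the last below the threshold for testing.

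Each of the 22 beta genes is a single exon block without introns, and the array spans 259.54 kb of chromosome 18. Of their levels per kilobase those of Pcdhb12 (80.4), Pcdhb9 (64.8) and Pcdhb17 (49.7) were highest, and Pcdhb14 (12) was the lowest of those tested. The rank of Pcdhb12 rests on its short unshared exon (1107 of 3034 exonic bases); over all exonic bases it lay at 29.3. Pcdhb1 was hardly detected, with scaled values of 1, 3, 3, 5 and 3 in vehicle, 1 to 2 in fusion protein and 1 in every combination library.

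The alpha and gamma arrays each appear as 1 row, named Pcdha11 and Pcdhga8 (the identifier of the latter is Pcdhgc4 in GENCODE M21), although the annotation holds 14 alpha and 22 gamma genes; 34 of those have identifiers above the highest in the table and are not among its rows. The 2 rows lay at 2889 and 822 scaled values per kilobase of their own unshared exons, above every other protocadherin. Whether they hold the reads of the whole alpha and gamma arrays, whose isoforms share constant exons, could not be settled from the table. Spread over the exons of the whole array they would lie at 177 and 40.3 per kilobase. They are called the alpha row and the gamma row below, and assignment to any single isoform is uncertain.

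**Figure D1:**
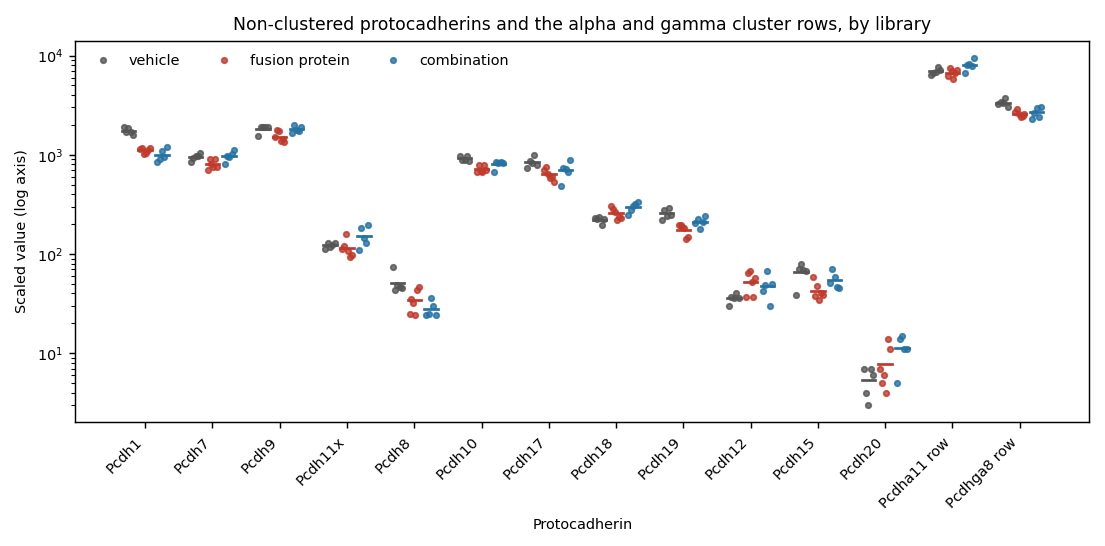
Scaled values (log axis) of the 12 non-clustered protocadherins and the alpha (Pcdha11) and gamma (Pcdhga8) rows in each library, with the group mean as a bar. In Pcdh1 the vehicle libraries (1594 to 1920) lie far above all libraries of both treatments (838 to 1192), while in Pcdh18 they (197 to 235) lie below all combination libraries (246 to 334).

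**Figure D2:**
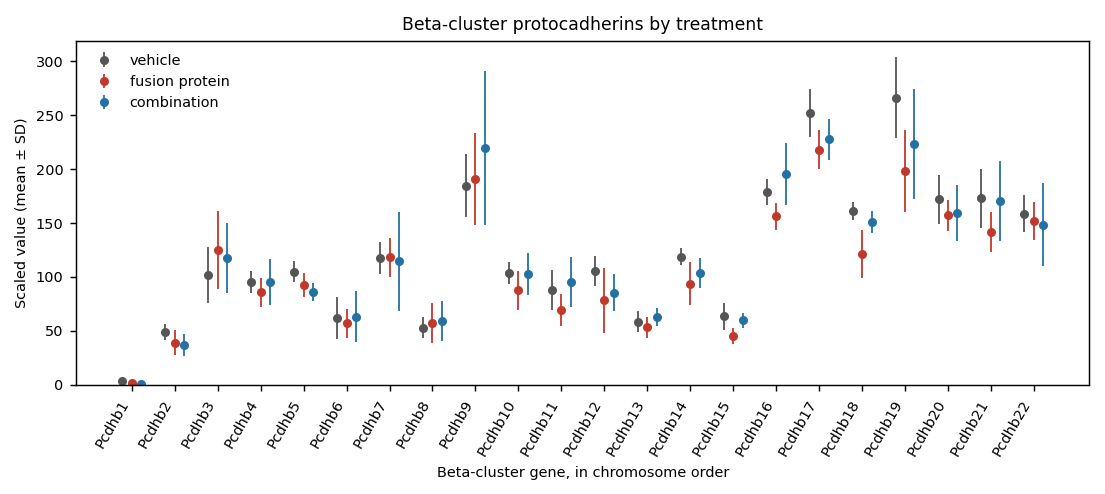
Mean scaled value and SD of the 22 beta-cluster genes in vehicle (n = 5), fusion protein (n = 6) and combination (n = 5) libraries, in chromosome order. Error bars overlap between groups for most genes, and Pcdhb1 lies near the value of 1 of an undetected gene.

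After the fusion protein, 12 of the 34 tested protocadherins fell against vehicle and none rose. The 12 comprised 8 of 11 non-clustered genes and 4 of 23 clustered rows, with median log2 differences of -0.25 and -0.12, against -0.02 for all tested genes. Over all 13385 tested genes 13.7% fell and 12% rose (limma on all 16 libraries, Benjamini-Hochberg adjusted p below 0.05). At an unadjusted p below 0.05 in the same fit 15 members were lower and 1 (Pcdh12) higher. The share of all tested genes at that unadjusted threshold was not counted, so these 2 counts cannot be set against it. Pcdh8 is counted here although its mean over the 11 treated libraries (log2 6.98) lay below the testing threshold, so that it was tested through its vehicle values; without it 11 of 33 members and 7 non-clustered genes were lower. The summed scaled value of the 12 non-clustered genes was 7056 ± 234 (SD, n = 5) in vehicle and 5485 ± 389 (n = 6) after the fusion protein, ranging from 6709 to 7316 and from 5058 to 6128. The 22 beta genes summed to 2672 ± 142 and 2338.5 ± 160, with ranges of 2438 to 2808 and 2126 to 2579 that overlap. In the combination group the sums were 6095 ± 604 (5160 to 6820) and 2577 ± 248 (2299 to 2972; n = 5), and both overlapped vehicle. The fusion protein and vehicle libraries did not overlap in 4 tested members, Pcdh1, Pcdh19, Pcdh10 and the gamma row, all lower, against 6.57% of all genes lower and 7.76% higher without overlap. Leaving out single libraries gave 3 to 8 lower non-clustered genes (4 without vehicle replicate 2 or 3, 3 without vehicle 4, 5 without vehicle 5, 4 without fusion protein 4 and 5 without fusion protein 6), with 1 higher without fusion protein 1 or 5. It gave 2 to 6 lower clustered rows (2 without vehicle 2 or 3 or fusion protein 3, 4 or 5). In these fits 9.94% to 15.6% of all tested genes were lower and 8.7% to 13.1% higher. The lower shares were 10.2%, 10.7% and 9.94% without vehicle 2, 3 and 4. The labels number the samples 1 to 8 and 12 to 19, with all combination libraries, 2 of the fusion protein and 1 of the vehicle libraries among the later numbers. Among numbers 1 to 8 alone (4 vehicle and 4 fusion protein libraries) 5 of the 12 calls passed: Pcdh1 (-0.65, adjusted p = 0.00204), Pcdh10 (-0.35, adjusted p = 0.0128), the gamma row (-0.36, adjusted p = 0.0162), Pcdh19 (-0.29, adjusted p = 0.0313) and Pcdh8 (-0.31, adjusted p = 0.0323). In that fit 8.49% of all tested genes were lower and 7.67% higher. For the combination no such fit can be made, since the later numbers hold 1 vehicle library and the earlier ones no combination library.

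Pcdh1 showed the largest log2 difference of any tested member in the fit of the deposited values. Its scaled values were 1920, 1710, 1847, 1696 and 1594 in vehicle, from 1030 (median 1130) to 1162 after the fusion protein and 838, 916, 1091, 950 and 1192 after the combination. Every treated library lay below every vehicle library. The group means were 63.3% and 56.9% of vehicle, against 54.1% for the weakly expressed Pcdh8 after the combination. The log2 difference was -0.60 ± 0.08 (SE) after the fusion protein (adjusted p = 4.12e-05) and -0.75 ± 0.08 after the combination (adjusted p = 5.39e-06). Between the treatments it was 0.15 (95% interval -0.01 to 0.31, adjusted p = 0.139). The call held in each of 30 alternative fits of the fusion protein comparison and 29 of the combination comparison, with a smaller difference of -0.38 and -0.44 once trends with GC content and gene length were removed.

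The other highly expressed delta1 genes differed less. Pcdh9 lay at 1534, 1904, 1907, 1898 and 1914 in vehicle and from 1355 (median 1467) to 1773 after the fusion protein, a log2 difference of -0.25 ± 0.08 (adjusted p = 0.0312). Pcdh7 lay at 854, 921, 973, 980 and 1052 in vehicle and from 707 (median 779) to 902 after the fusion protein, a difference of -0.23 ± 0.08 (adjusted p = 0.0387). In both genes the groups overlapped. After the combination they were close to vehicle: Pcdh9 ranged from 1662 to 2004 and Pcdh7 from 809 to 1108, with log2 differences of -0.00 and 0.01. Leaving out single libraries ended the fusion protein call of Pcdh7 for vehicle 2 to 5 and fusion protein 1, 3, 4 and 6 (-0.24 to -0.19, adjusted p from 0.0573 to 0.0992), and it was also lost without GC and length trends (-0.11, adjusted p = 0.29). The Pcdh9 call was lost without vehicle 2 to 5 or fusion protein 4 to 6 (-0.23 to -0.22, adjusted p from 0.061 to 0.0751). Pcdh11x, the X-linked delta1 gene, did not pass in any comparison.

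Of the delta2 genes, Pcdh19 and Pcdh10 fell without overlap after the fusion protein. Pcdh19, an X-linked gene that pairs with N-cadherin and is mutated in an X-linked epilepsy, is on chrX:133582860-133688987. It lay at 218, 280, 243, 294 and 250 in vehicle and from 143 (median 185) to 198 after the fusion protein, a log2 difference of -0.37 ± 0.08 (adjusted p = 0.00189). Its combination values were 206, 224, 178, 211 and 240, a difference of -0.19 that did not pass (adjusted p = 0.0643). Pcdh10, which recruits the WAVE actin regulator, is on chr3:45378398-45435623; it lay at 964, 894, 890, 979 and 862 in vehicle and from 668 (median 701.5) to 795 after the fusion protein (-0.30 ± 0.07, adjusted p = 0.00273). In combination libraries Pcdh10 was 678, 842, 833, 842 and 830, below each vehicle library, with a difference of -0.17 (adjusted p = 0.0621). The Pcdh19 call held in all 30 alternatives; the Pcdh10 difference was -0.11 and did not pass (adjusted p = 0.348) without GC and length trends.

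Pcdh17, a delta2 gene of axons and synapses on chr14:84443563-84539002, and Pcdh8, known as arcadlin and linked to N-cadherin endocytosis, also fell after the fusion protein. Pcdh17 lay at 729, 874, 819, 987 and 783 in vehicle, from 533 (median 620) to 751 after the fusion protein and at 490, 731, 718, 666 and 878 after the combination. Groups overlapped in both comparisons; the difference was -0.34 ± 0.10 for the fusion protein (adjusted p = 0.0211) and -0.24 for the combination (adjusted p = 0.0867). The fusion protein call was lost without vehicle replicate 2 or 4 (-0.33 to -0.29, adjusted p from 0.0505 to 0.0657), and without GC and length trends the difference was -0.19 (adjusted p = 0.0418). Pcdh8, just above the testing threshold (mean log2 value 7.06), had scaled values of 74, 43, 49, 46 and 45 in vehicle, 24 (median 33.5) to 46 after the fusion protein and 24, 25, 36, 30 and 24 after the combination. It passed the filter through vehicle (mean log2 7.24, against 7.02 after the fusion protein and 6.93 after the combination), so its differences are tied to the filter. The combination libraries all lay below vehicle, with a log2 difference of -0.32 ± 0.08 (adjusted p = 0.00489, and 0.00749 with no filter on low values), and the fusion protein difference was -0.22 ± 0.08 (adjusted p = 0.0391), a call lost without vehicle 1, 3 or 4 or fusion protein 1, 2, 3 or 4 (-0.24 to -0.16, adjusted p from 0.0515 to 0.109) or with no filter (adjusted p = 0.0545). Without GC and length trends neither Pcdh8 call remained: the combination difference turned to 0.03 and the fusion protein difference was -0.05 (adjusted p = 0.634).

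Pcdh18, a delta2 gene that binds the adaptor Dab1 and lies on chr3:49743296-49757325, was the only tested member that rose against vehicle in the fit of the deposited values. Its values were 228, 224, 235, 197 and 226 in vehicle and 246, 277, 306, 319 and 334 after the combination, where every library lay above every vehicle library. The log2 difference was 0.29 ± 0.08 (adjusted p = 0.00596), and 0.15 (adjusted p = 0.108) without GC and length trends. After the fusion protein it ranged from 220 (median 251.5) to 302 and did not pass (0.15, adjusted p = 0.152).

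Promoters are shown for the 4 delta2 genes with the highest levels (Pcdh19, Pcdh10, Pcdh17 and Pcdh18), since 3 of them fell after the fusion protein and 1 rose after the combination. RefSeq promoter windows (GRCm38.p6, 250 bases before to 50 after the gene start) matched 9 members by symbol, with 10 windows. Windows on the chromosome that holds Pcdh1, Pcdh12 and the clustered genes were left out before matching. The promoters of those genes were thus not examined, and the windows used for comparison lack that chromosome too. Pcdh11x, on another chromosome, had no window either. Both strands were searched for GGGCGG (GC box), TTCNNNGAA and the same letters with 4 bases between TTC and GAA (spacings bound by STAT factors, among them STAT6 of the IL4 pathway and STAT3 of the IL10 pathway), and TATAAA, in these and in 32851 windows of the same length. GGGCGG was found in 4 of the 10 windows and in 35.7% of all windows, TTCNNNGAA in 0 and 8.3%, the wider spacing in 0 and 6.95%, and TATAAA in 2 (Pcdh8 and Pcdh15) and 13.6%. No member window held more than 1 of these motifs, so none overlapped. In the lines that follow, capitals mark GGGCGG or its reverse complement, with 1 match in each of the 4 windows, the risen gene and the fallen ones alike. Windows are chrX:133688944-133689243 (minus strand), chr3:45378148-45378447 (plus), chr14:84443313-84443612 (plus) and chr3:49757267-49757566 (minus).
Pcdh19: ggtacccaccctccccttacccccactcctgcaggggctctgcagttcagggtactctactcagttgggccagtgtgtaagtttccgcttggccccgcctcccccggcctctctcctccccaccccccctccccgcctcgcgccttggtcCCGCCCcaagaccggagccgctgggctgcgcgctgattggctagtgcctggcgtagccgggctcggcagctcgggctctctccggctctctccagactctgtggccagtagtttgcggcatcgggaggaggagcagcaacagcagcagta
Pcdh10: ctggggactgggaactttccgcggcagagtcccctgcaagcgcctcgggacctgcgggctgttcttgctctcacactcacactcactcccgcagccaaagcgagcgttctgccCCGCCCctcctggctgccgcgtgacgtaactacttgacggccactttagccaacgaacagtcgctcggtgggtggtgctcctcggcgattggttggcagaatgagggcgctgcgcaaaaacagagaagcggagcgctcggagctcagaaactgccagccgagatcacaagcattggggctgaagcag
Pcdh17: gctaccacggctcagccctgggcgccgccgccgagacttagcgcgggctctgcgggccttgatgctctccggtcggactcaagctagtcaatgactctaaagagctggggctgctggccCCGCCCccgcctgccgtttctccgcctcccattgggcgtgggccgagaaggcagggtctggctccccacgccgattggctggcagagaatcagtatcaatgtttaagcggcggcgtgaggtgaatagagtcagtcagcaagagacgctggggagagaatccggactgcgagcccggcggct
Pcdh18: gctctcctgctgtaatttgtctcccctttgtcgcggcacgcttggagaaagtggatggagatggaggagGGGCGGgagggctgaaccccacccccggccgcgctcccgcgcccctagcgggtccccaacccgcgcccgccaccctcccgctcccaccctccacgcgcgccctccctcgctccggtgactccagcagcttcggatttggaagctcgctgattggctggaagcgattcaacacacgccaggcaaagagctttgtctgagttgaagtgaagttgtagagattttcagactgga
Their GC content was 67.67%, 62.33%, 65% and 63%, against a median of 52.67% over all windows, and they held 18, 24, 26 and 23 CG dinucleotides, against a median of 7. The absence of the STAT spacings says only that these letters are not in these windows.

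The remaining non-clustered genes were weakly expressed. Pcdh15, of hair-cell tip links, lay at 39, 71, 80, 69 and 67 in vehicle and from 34 (median 39.5) to 58 after the fusion protein, a log2 difference of -0.25 ± 0.08 (adjusted p = 0.0303). The call was lost without vehicle 2 to 5 or fusion protein 2, 4, 5 or 6 (-0.24 to -0.21, adjusted p from 0.0515 to 0.0911), and the difference changed sign (0.036) without GC and length trends. Pcdh12, known from endothelium, lay from 30 to 40 in vehicle, 37 to 67 after the fusion protein and 30 to 68 after the combination, and did not pass (0.20 ± 0.08, adjusted p = 0.0792 for the fusion protein). Endothelial markers (6 genes) summed to 2063 to 2673 in vehicle and 2078 to 2822 after the fusion protein, and their part in the Pcdh12 values was not tested. Pcdh20, below the threshold for testing with a mean log2 value of 6.49, had values of 3 to 7 in vehicle, 4 to 14 after the fusion protein and 5 to 15 after the combination.

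Among the clustered genes the gamma row was the most changed. Gamma protocadherins are required for the survival of spinal interneurons and for dendrite self-avoidance. Its scaled values were 3268, 3385, 3311, 3735 and 3005 in vehicle, 2402 (median 2586) to 2911 after the fusion protein and 2317, 2641, 2979, 2428 and 3002 after the combination. Vehicle lay above both treatments in every library, by as little as 3005 against 3002. The log2 difference was -0.34 ± 0.08 (adjusted p = 0.00321) after the fusion protein and -0.31 ± 0.08 (adjusted p = 0.00511) after the combination. With the split of label numbers in the model the combination call was lost (-0.23, adjusted p = 0.0967), and without GC and length trends too (-0.17, adjusted p = 0.109).

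The alpha row, from genes that serve serotonergic axons, lay at 6403, 6695, 6877, 7678 and 7112 in vehicle, 5835 (median 6840.5) to 7429 after the fusion protein and 6691, 7985, 8321, 7903 and 9442 after the combination. It was lower after the fusion protein than after the combination (-0.25 ± 0.08, adjusted p = 0.0309), while neither treatment passed against vehicle (-0.05, adjusted p = 0.702, and 0.21, adjusted p = 0.0719). Of the 21 beta genes tested, 3 fell after the fusion protein, a share near the 13.7% of all tested genes, and 18 did not pass. Pcdhb18 lay at 156, 174, 160, 153 and 162 in vehicle and from 105 (median 115.5) to 165 after the fusion protein, a log2 difference of -0.25 ± 0.07 (adjusted p = 0.0106). Pcdhb19 ranged from 224 to 310 in vehicle and from 144 to 247 after the fusion protein (-0.30 ± 0.10, adjusted p = 0.0385). Pcdhb15 ranged from 50 to 83 and from 33 to 53 (-0.20 ± 0.07, adjusted p = 0.0393). All 3 overlapped between groups. The Pcdhb19 call was lost without vehicle 2 to 4 or fusion protein 3 to 6 (-0.31 to -0.24, adjusted p from 0.0516 to 0.106), and that of Pcdhb15 without vehicle 2 to 4 or fusion protein 3 to 5 (-0.21 to -0.15, adjusted p from 0.0583 to 0.128). Pcdhb9 (149 to 223 in vehicle, 140 to 233 after the fusion protein), Pcdhb12 (86 to 121 and 54 to 136) and Pcdhb17 (215 to 271 and 201 to 247) did not pass. Pcdhb2, the clustered gene nearest above the testing threshold (7.12), ranged from 36 to 55 and from 23 to 58.

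**Figure D3:**
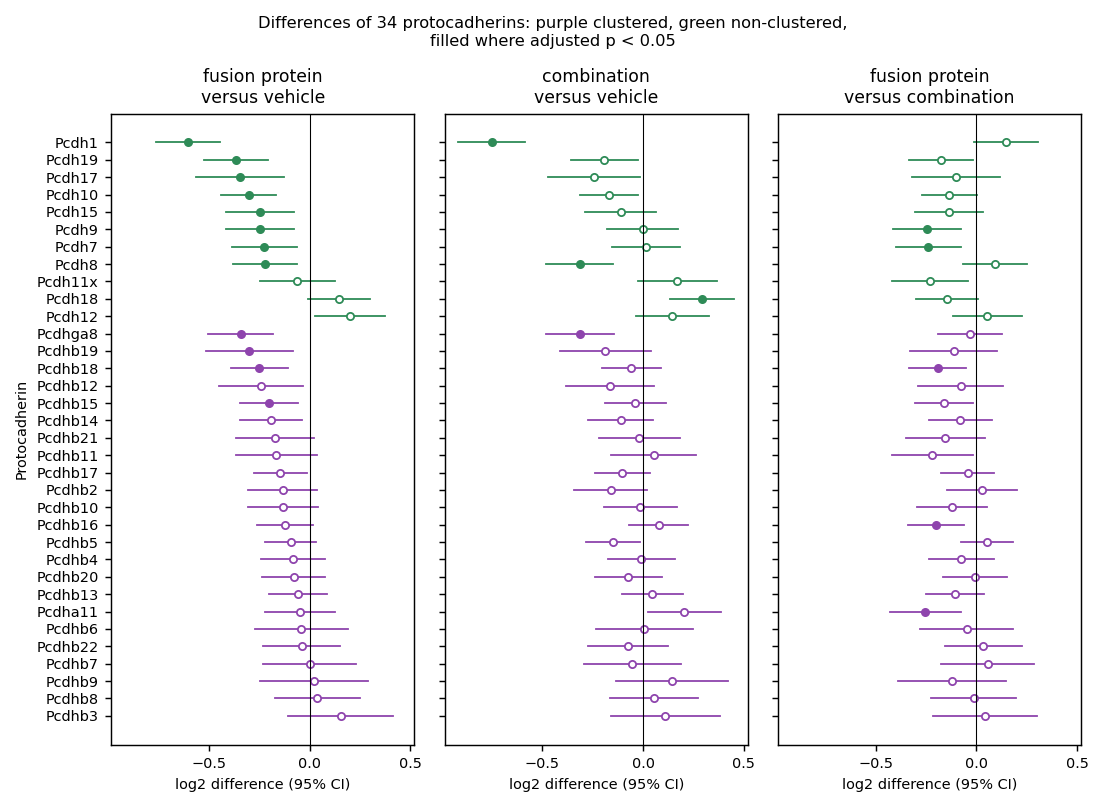
Log2 difference with its 95% interval of each of the 34 tested protocadherins in 3 comparisons, with clustered rows in purple and non-clustered genes in green, filled where adjusted p was below 0.05. Pcdh1 stands out to the left in both comparisons with vehicle (-0.60 and -0.75), and Pcdh18 is the one filled gene to the right (0.29).

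After the combination, 3 protocadherins fell (Pcdh1, Pcdh8 and the gamma row) and Pcdh18 rose, 4 of 34 against 36.5% of all tested genes called in either direction (24.2% higher, 12.3% lower). Without Pcdh8, which was tested through its vehicle values, 2 members fell. The medians were -0.04 for clustered rows and -0.11 for non-clustered genes, against 0.06 over all genes. Libraries did not overlap with vehicle in Pcdh1, Pcdh8, Pcdh10 and the gamma row (lower) and Pcdh18 (higher), against 7.91% of all genes lower and 15.1% higher without overlap. Without combination replicate 5 there were 4 lower non-clustered genes in place of 2, without replicate 2 there were 2 lower clustered rows in place of 1, without replicate 1 there were 2 higher non-clustered genes in place of 1, and without vehicle 4 or combination 1 there was 1 higher clustered row. Over the omissions of 1 library, 10.4% to 13.5% of all tested genes were lower and 19.8% to 28% higher. Both treatments were compared with the same vehicle libraries, so their values are set side by side and their likeness is no result. The fusion protein and the combination differed from each other in 5 members, all lower after the fusion protein: Pcdh7 (-0.24 ± 0.08, adjusted p = 0.0288), the alpha row, Pcdh9 (-0.24 ± 0.08, adjusted p = 0.0316), Pcdhb16 (-0.20 ± 0.07, adjusted p = 0.0328) and Pcdhb18 (-0.19 ± 0.07, adjusted p = 0.0399). Of all genes tested, 22.2% were lower and 7.35% higher in that comparison, so 5 of 34 is no larger a share. Under quantile normalization 10.5% of all genes were lower and 7.26% higher, with 2 clustered rows lower, 0 non-clustered genes lower and 1 higher. At an unadjusted p below 0.05 in the fit of the deposited values, 9 members were lower and 0 higher. The share of all tested genes at that threshold was not counted. Pcdhb16 lay from 135 to 168 after the fusion protein and from 168 to 229 after the combination. No member's groups were free of overlap, against 6.44% of all genes lower and 3.09% higher. Each of the 5 calls was lost in some omissions of a library, with adjusted p from 0.0502 to 0.0988: Pcdh7 without fusion protein 1, 4 or 6 or combination 2, 4 or 5, the alpha row without fusion protein 1, 4 or 5 or combination 2 to 5, Pcdh9 without fusion protein 4 to 6 or combination 2, 3 or 5, and Pcdhb16 without fusion protein 4 to 6 or combination 2 or 5. Pcdhb18 was lost without vehicle 2 or 3, fusion protein 3 to 6 or combination 2 to 4. With 1 library left out, 0 to 4 clustered rows and 0 to 5 non-clustered genes were lower, with no call in either class without fusion protein 4 or combination 2. Of all tested genes 10.8% to 30.2% were lower and 4.09% to 8.97% higher in the omissions. Without fusion protein 4 the lower share was 14%, and without combination 2 it was 10.8%. None of the 5 held without trends in GC content and length, where no member passed. With those trends removed 6.77% of all tested genes were lower and 4.95% higher.

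The clustered and non-clustered groups differ in level, with median log2 values of 7.79 and 8.54, against 9.23 for all tested genes. The log2 scale compresses differences at low values, and its part in the class medians was not tested. The 2 classes also differ in the gene properties on which the libraries differed. Tested clustered rows had a median exonic length of 3754 bases and a median GC content of 45.55%, non-clustered genes 10464 bases and 38.5%, and all tested genes 4616 bases and 45.73%. The slope of a library's values on log2 exonic length ranged from 0.0228 to 0.103 in vehicle, -0.0769 to -0.0137 in fusion protein and -0.0515 to 0.00618 in combination libraries. The slope on GC content ranged from 9.28e-05 to 0.158 in vehicle, -0.0545 to 0.0797 in fusion protein and -0.148 to -0.0278 in combination libraries. Both slopes are per SD of the property. Removing such trends from each library left 4 non-clustered genes lower and 1 higher (Pcdh12, 0.28, adjusted p = 0.0165) after the fusion protein, in place of 8 and 0, and 5 clustered rows lower in place of 4. The medians were then -0.11 for non-clustered and -0.13 for clustered, in place of -0.25 and -0.12. Of all tested genes 13% were then lower and 12.6% higher after the fusion protein. After the combination 10.6% of all tested genes were lower and 15.5% higher in this fit. After the combination 5 non-clustered genes and 6 clustered rows were then lower, in place of 2 and 1: Pcdh1 (-0.44), Pcdh17 (-0.34), Pcdh19 (-0.31), Pcdh10 (-0.24) and Pcdh9 (-0.19), and of the clustered genes Pcdhb19 (-0.32), Pcdhb14 (-0.25), Pcdhb18 (-0.23), Pcdhb20 (-0.22), Pcdhb17 (-0.22) and Pcdhb5 (-0.19). For the alpha and gamma rows the length used is that of the single annotated gene with the row's identifier, which for the gamma row the annotation names Pcdhgc4, and it may not be that of what was counted.

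**Figure D4:**
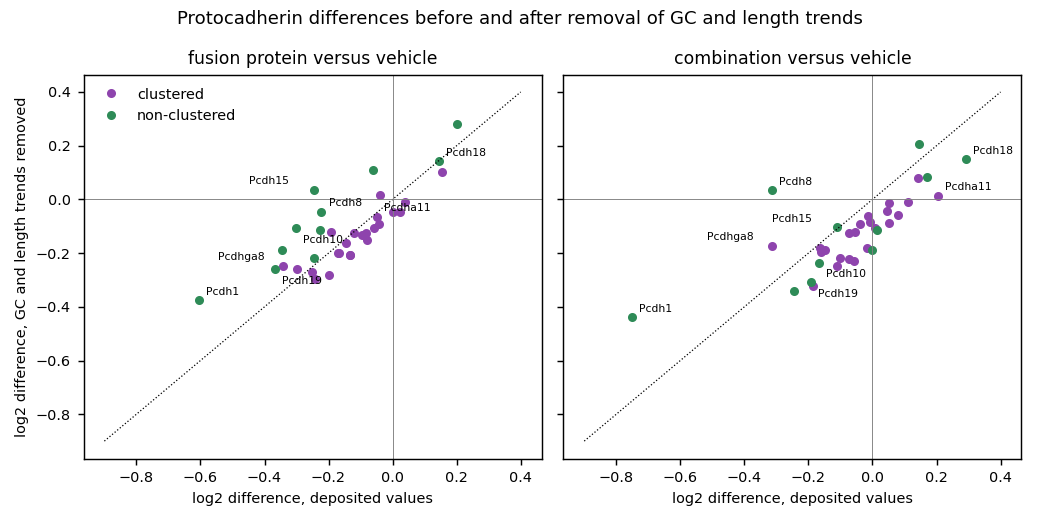
Log2 differences of the 34 tested protocadherins from deposited values (x axis) and after trends with GC content and exonic length were removed (y axis), with equality dotted. Most non-clustered genes move up in the fusion protein panel, and Pcdh1 stays lowest in both panels (-0.38 and -0.44).

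Genes that work with protocadherins were counted from lists. Of 20 tested regulators of promoter choice in the clusters, 1 rose and 2 fell after the fusion protein, among them the cohesin subunit Smc1a (0.30, adjusted p = 0.00205) and the DNA methyltransferase Dnmt3a (-0.41, adjusted p = 0.000452). After the combination 6 rose and 1 fell, among them Smc1a (0.46, adjusted p = 4.94e-05) and its cohesin partners Smc3 (0.38) and Stag2 (0.37). Medians were -0.06 and 0.10, and 8 of the 20 were lower and 1 higher after the fusion protein than after the combination. Of 27 cytoplasmic partners and cleaving enzymes, 3 rose and 5 fell after the fusion protein, among the latter Wasf1 (-0.49), Wasf3 (-0.43) and Wasf2 (-0.28), which are the WAVE proteins themselves. Of the other subunits of the WAVE complex, Cyfip2 fell (-0.35) and Brk1 rose (0.17), while Abi1 (-0.09), Abi2 (-0.21), Nckap1 (-0.06) and Cyfip1 (0.01) did not pass. After the combination 5 rose and 4 fell, with beta-catenin (Ctnnb1) at 0.39, and 10 were lower after the fusion protein than after the combination, among them Nckap1 (-0.35). Of 28 other cadherins tested, 11 fell and none rose after the fusion protein (median -0.16), with the seven-pass cadherin Celsr2 at -0.68 (adjusted p = 3.63e-06), Fat4 at -0.64 and Celsr3 at -0.48. After the combination 7 fell and 6 rose, with Celsr2 at -0.74 (adjusted p = 1.75e-06) and Cdh11, a mesenchymal cadherin, at 0.46. Between the treatments 12 were lower and 1 higher after the fusion protein. These counts are descriptions beside 13.7% lower and 12% higher of all genes after the fusion protein, 24.2% higher and 12.3% lower after the combination, and 22.2% lower and 7.35% higher between them.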

How the data were processed

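PolyA-selected RNA of 16 DRG samples was sequenced. Per the submitters' processing notes, FastQC, STAR, HTSeq and DESeq2 were used with build GRCm38; versions are not given in the sources used here. The deposited table of the authors holds log2 values from variance stabilisation, a GC content column in percent per the file headers, and deposited p-value columns whose headers name no comparison, which were not used. All values decode to whole scaled values within 0.01; the lowest log2 value of 5.99 decodes to 0 and undetected genes sit at 6.17. The filter kept genes with a mean log2 value of 6.99 or more (scaled value 31.8), which is 1 above the lowest value. In limma 3.58.1 (R 4.3.3) 1 model held all groups (lmFit), contrasts gave the 3 comparisons, and eBayes was run with its trend and robust options. Tests were two-sided, p-values were adjusted by Benjamini-Hochberg over the 13385 genes, and the threshold was 0.05. The fit was tested on simulated data. Exonic length and coordinates came from GENCODE M21 (GRCm38) and promoters from RefSeq (GRCm38.p6); Python 3.11.15 was used.

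The members and lists were chosen with earlier results of these data known. Named in the text are members past the threshold (up to 12 by p per comparison), the 3 highest levels per length of each subgroup, members next to the filter, and up to 4 genes by p of each related list per comparison, of which some are not reported here. Replicate numbers were compared across groups: correlations of deviations ran from -0.196 to 0.598, so the numbers were not taken as pairs. No 2 replicates of a group were alike beyond 1.32% of tested genes with equal values. Alternatives were other filters, normalizations, variance models, array weights, thresholds, fits of only the groups compared, a replicate block, the late label number (12 and above) as covariate, removal of trends with GC content and length from each library, and omission of each library. A fit of label numbers 1 to 8 alone was added after seeing the data. With the read depth unknown, no counting interval is given.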

Additional observations from a re-analysis of the deposited data

Results flagged for a closer look

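Single libraries stood apart from the others of their group in 12 of 102 sets of a gene and a group, by a gap test on the log2 values that flags about 5% of sets by chance. The values printed here are scaled values. In vehicle, replicate 1 was high for Pcdh8 at 74 (others 43 to 49) and low for Pcdhb21 at 124 (179 to 193), Pcdhb4 at 78 (97 to 104), Pcdh15 at 39 (67 to 80) and Pcdh9 at 1534 (1898 to 1914). Vehicle replicate 4 was low for Pcdh18 at 197 (224 to 235) and Pcdhb17 at 215 (254 to 271), and vehicle replicate 5 for Pcdhb13 at 42 (60 to 66). Fusion protein replicate 1 was high for Pcdhb18 at 165 (105 to 119). In the combination group replicate 3 was low for Pcdhb10 at 69 (105 to 120), replicate 5 for Pcdhb18 at 133 (152 to 160) and replicate 1 for Pcdh10 at 678 (830 to 842). Vehicle replicate 1 accounts for 5 of the 12.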

How the results depend on the processing

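Pcdh1 kept its calls against vehicle after both treatments, and Pcdh19 after the fusion protein, in every alternative run. Over the 21 calls of single members, 466 of 615 alternative values kept direction and call, 140 kept the direction only and 9 reversed. The reversed ones arose with GC and length trends removed: Pcdh15 after the fusion protein (0.036, with the late label number 0.015, with the replicate block 0.0089) and Pcdh8 after the combination (0.034, 0.040 and 0.034). With the late label number as well, Pcdh7 (0.15), Pcdh9 (0.0079) and the alpha row (0.034) reversed between the treatments. The stricter filter tested 9 clustered rows and 7 non-clustered genes. With no filter 24 clustered rows, Pcdhb1 among them, and 12 non-clustered genes were tested. The clustered counts of that fit can include Pcdhb1, whose combination libraries all sat at the undetected value. With array weights 25% of all genes were lower and 20.6% higher after the fusion protein, and 17.9% and 34.3% after the combination. Between the treatments these shares were 35% and 11.9%. At a threshold of 0.1 the lower shares in the same order were 18.4%, 15.5% and 31.2%. At 0.01 they were 6.96%, 7.3% and 4.56%. The higher shares at 0.1 were 15.7%, 29.4% and 10.9%. After the fusion protein 15.2% of all genes were lower with the stricter filter. With trends removed there, 13.2% were lower and 13% higher with the late label number added, and 11.3% and 11.8% with the block. After the combination the lower shares were 13% (stricter filter), 7.99% (no filter), 14.2% (quantile normalization), 13.4% (median centring) and 11.5% (late label number). With trends removed after the combination, 5.75% were lower and 6.81% higher with the late label number, and 11% and 16.3% with the block. Between the treatments the lower shares were 8.77% (no filter), 17.2% (median centring), 17.8% (only the groups compared) and 19% (replicate block). With trends removed they were 6.77% alone, 3.47% with the late label number and 7.64% with the block. The following counts of called members moved by over 1.5 times, and beyond these numbers tested and shares the cause was not tested. Clustered rows lower after the fusion protein (4) numbered 2 with a stricter filter, 9 with array weights, 7 and 1 at thresholds of 0.1 and 0.01, and 1 with label numbers 1 to 8 alone, a fit with fewer samples chosen after seeing the data. Non-clustered genes lower there (8) numbered 4 with trends removed, 4 with the late label number added and 3 with the replicate block added, 3 at 0.01 and 4 with label numbers 1 to 8; higher ones (0) numbered 1 with array weights, with trends removed (alone, with the late label number or with the block) and at 0.1. After the combination, clustered rows lower (1) numbered 2 with no filter, 6 with array weights, 0 with the late label number, 6 with trends removed, 6 with the block added and 2 at 0.1, and higher ones (0) 1 with array weights and at 0.1. Non-clustered genes lower (2) numbered 1 with a stricter filter, 4 with quantile normalization, 4 with median centring, 5 with array weights, 5 with trends removed (5 with the late label number, 4 with the block) and 5 at 0.1; higher ones (1) numbered 0 with trends removed, in all 3 forms. Between the treatments, clustered rows lower (3) numbered 0 with no filter, 1 with median centring, 0 with only the groups compared, 1 with the replicate block, 0 with trends removed in all 3 forms, 5 at 0.1 and 0 at 0.01. Non-clustered genes lower (2) numbered 0 with no filter, 0 with quantile normalization (1 higher), 4 with array weights, 0 with trends removed in all 3 forms, 4 at 0.1 and 0 at 0.01. Omitting 1 library gave 2 to 6 clustered and 3 to 8 non-clustered lower and 0 to 1 non-clustered higher after the fusion protein. After the combination it gave 0 to 1 clustered higher, 1 to 2 clustered lower, 1 to 2 non-clustered higher and 2 to 4 non-clustered lower, and between the treatments 0 to 4 clustered and 0 to 5 non-clustered lower. The replicate numbers were not taken as pairs, but the check above does not settle whether they pair the samples. Of 30 comparisons of a sample with another group, 10 were highest at its own number, out of 5 numbers. Replicate 2 correlated positively in all 3 pairs of groups (0.464, 0.598 and 0.453), while every other number had both signs. With the replicate block alone the lower counts were 4 and 7 after the fusion protein, 1 and 2 after the combination, and 1 and 2 between the treatments. Weakly expressed members (Pcdhb1, Pcdh20, Pcdh15, Pcdh12, Pcdh8) lie where the log2 scale compresses differences. Several beta genes lie at like mean log2 values, among them Pcdhb2 (7.12), Pcdhb15 (7.29), Pcdhb8 (7.29), Pcdhb13 (7.32) and Pcdhb6 (7.33).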

Other observations

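Pcdhb1, the first gene of the beta array, lay below the testing threshold (mean log2 value 6.22). It was above the undetected value of 1 in 4 of 5 vehicle libraries, in 1 of 6 fusion protein libraries and in 0 of 5 combination libraries. With no filter on low values the log2 differences were -0.11 after the fusion protein and -0.12 after the combination, on a scale that is compressed at such values. All 5 combination libraries sat at the undetected value, with an SD of 0, so no p-value is given for Pcdhb1. Pcdh20 gave 0.08 (limma, adjusted p = 0.475) and 0.18 (adjusted p = 0.0666) in the same fit. Both genes were singled out because they lay below the threshold.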
